A study of Mus musculus with 30 samples.

Results

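The genes described here are 100 genes of mouse embryonic stem (ES) cells whose nuclear RNA was near its control level after 2 h of SRCAP degradation and lower after both 6 h and 8 h. They were chosen from the exon counts of the time course in SYAT cells. Each library was scaled to its total count, as counts per 1000000 (CPM), and for each time the log2 ratio of the mean treated to the mean control CPM was taken after adding 0.5 to both. Of 55401 genes in the tables, 10835 had a mean control CPM of at least 5. Of these, 5052 had a log2 ratio at 2 h between -0.1 and 0.1, and 4959 remained once genes of the Zfp, Ift, Bbs, Cep and Ttc symbol families, 93 in number, were set aside. The 100 genes whose higher value of the 6 h and 8 h log2 ratios was lowest were taken, which left 4859 eligible genes that were not chosen. Had the symbol families been kept, 4 of the 93 would have ranked among the 100.

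SRCAP is the ATPase of a chromatin remodelling complex that replaces histone H2A by the variant H2A.Z, mostly at promoters and enhancers. An auxin-inducible degron lets the plant hormone auxin, given as indole-3-acetic acid (IAA), mark a tagged protein for the proteasome through the plant receptor Tir1. A gene that loses transcription shows it in RNA only as fast as its existing transcripts decay, and in RNA-seq of nuclei the reads in introns come mostly from unspliced, recent transcripts.

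Nuclear RNA-seq was made from 30 libraries in 15 conditions, each with 2 replicates. SYAT cells are CGR8 mouse ES cells, 1 homozygous clone, with SRCAP-YPet-AID on both alleles and with OsTir1, and the labels give them as control or at 2, 4, 6 and 8 h of IAA (500 µM). SYAT cells were also sorted in early G1 (EG1) or late G1 (LG1) as control or after 1 h of IAA. The sorted cells, by the study's methods, stably expressed an mCherry reporter degraded in mitosis and were sorted by it and by Hoechst stain. CGR8 cells, which carry no degron, were left untreated (NT) or given IAA for 4 h, and SYAT cells with a doxycycline-inducible wild type (wtSRCAP) or catalytically dead (cdSRCAP) SRCAP-mCherry transgene, 1 clone of each, were given doxycycline for 24 h in every group, without IAA (NT) or with IAA for 4 h, and were sorted for similar, high mCherry. By the study's methods, controls of SYAT cells and of both transgenic lines were kept in auxinole, an inhibitor of Tir1, so in cells with the degron the presence of IAA and the absence of auxinole cannot be told apart.

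Exon counts per library summed to between 17540823 and 22873893 in the time course, 45617992 and 60214521 in CGR8 cells, 19740778 and 26672402 in the sorted cells and 12236493 and 26369773 in wtSRCAP and cdSRCAP cells. All 11 ES cell markers were at 1 CPM or more on average in each of the 15 conditions. Replicate 1 of wtSRCAP cells with IAA stood apart, with the lowest total, a TMM scaling factor of 0.838, 0.215% mitochondrial counts and 30.3% of its counts in its top 20 genes. In the time course, replicate 2 at 6 h had a TMM factor of 0.854 and 0.529% mitochondrial counts. IAA acts on the SRCAP protein, so Srcap RNA is no check of the treatment, and its normalised exon level was between 39.9 and 60.2 CPM in the time course, 21.3 and 24.2 CPM in CGR8 cells and 48.9 and 74.5 CPM in wtSRCAP and cdSRCAP cells.

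The genes are of mixed function, and 96 are protein coding. The other 4, Gm5884, Gm5644, Bloc1s2-ps and Gm6877, are processed pseudogenes of 1 exon, whose counts may come in part from their parent genes and are uncertain. Of the gene lists drawn up by symbol, vesicle and membrane traffic held 10 of the 100 genes, against 3.35% of the eligible genes not chosen, and lipid metabolism and peroxisome held 9, against 1.93%. The cilium and centrosome list kept 2 genes (Rpgr and Cfap36) and the chromatin regulators 2 (Chd1l and Phf2), and no gene of the ubiquitin, mitochondrial or splicing and transcription lists was among the 100. The lists match symbols and are incomplete, so an empty list does not mean that its function is absent. Apool and Cbr4, described below as genes of mitochondria, are among the 100. These shares describe the choice and were not tested.

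Of the 100 genes, 11 lie on the X chromosome, against 4.30% of the eligible genes not chosen: Zc4h2, Mtmr1, Rpgr, Tspan6, Fam199x, Tro, Apool, Gm5644, Chm, Gprasp2 and Armcx1. The genes had a median length of 38350 bp against 23655.5 bp for those not chosen, and 28 were longer than 100 kb, with Zbtb20, Fam172a and Slc39a11 the longest. Exon length (median 4586 against 4505 bp) and the highest number of exons in a transcript (median 10 in both) were similar in size. The pairs of chosen genes closest to each other were Dusp18 and Tcn2, 15.9 kb apart, and Acsl6 and Fnip1, 73.4 kb apart. Exons of 26 genes overlap a gene on the other strand (30.1% of those not chosen), and because the strand setting of the counting is not given in the sources used here, reads of such pairs cannot be told apart.

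RefSeq promoters (GRCm38.p6) of 300 bases, of which 250 lie before the start, were at hand for 76 of the 100 genes, as 91 windows. The 250 bases before the start are shown for Zc4h2, the gene with the lowest time course values, and, as examples from the transgenic cells, for Tpp1, lower at an unadjusted p under 0.05 in both lines, and Cbr4, one of the lower genes with the smallest p-values in wtSRCAP cells. They lie at chrX:95658510-95658759 (minus strand), chr7:105752236-105752485 (minus strand) and chr8:61487484-61487733 (plus strand), and capitals mark the letters of any motif searched.
Zc4h2: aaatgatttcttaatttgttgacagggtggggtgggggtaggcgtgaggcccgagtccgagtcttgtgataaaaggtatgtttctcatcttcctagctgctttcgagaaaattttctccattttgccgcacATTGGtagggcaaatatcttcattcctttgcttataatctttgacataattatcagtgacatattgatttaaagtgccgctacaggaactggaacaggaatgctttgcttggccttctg
Tpp1: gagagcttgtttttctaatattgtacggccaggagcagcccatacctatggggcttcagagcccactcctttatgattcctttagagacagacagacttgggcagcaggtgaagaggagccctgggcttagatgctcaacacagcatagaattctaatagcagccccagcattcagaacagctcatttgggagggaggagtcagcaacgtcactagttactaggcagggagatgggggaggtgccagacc
Cbr4: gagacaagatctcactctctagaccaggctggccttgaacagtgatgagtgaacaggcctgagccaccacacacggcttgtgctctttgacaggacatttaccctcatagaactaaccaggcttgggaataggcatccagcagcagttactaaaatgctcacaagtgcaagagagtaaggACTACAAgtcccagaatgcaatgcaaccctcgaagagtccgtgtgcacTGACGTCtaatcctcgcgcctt
The capitals are a CCAAT box on the opposite strand in Zc4h2, 119 bases before the start, and in Cbr4 a ZNF143 core at 70 bases and a CRE core at 22 bases, while Tpp1 held none of the motifs. The TATA box (TATAAA) was in 1 of the 91 windows, or 1.10%, against 6.33% of 4595 windows of eligible genes not chosen and 13.6% of all 32851 windows. The CCAAT box (CCAAT) was in 40.7%, 38.4% and 37.4% of these windows, and the GC box (GGGCGG) in 70.3%, 68.5% and 35.7%. The ETS site (CCGGAAG) was in 14.3%, 18.5% and 8.86%, the E-box (CACGTG) in 9.89%, 11.4% and 7.15%, and the YY1 core (ATGGCGG) in 8.79%, 9.51% and 4.05%. For the remaining motifs the share of the 91 windows was 5.49% for the NRF1 site (GCGCATG; 8.16% of those not chosen), 3.30% for the CRE core (TGACGTC; 5.66%), 5.49% for the ZNF143 core (ACTACAA; 3.83%) and 7.69% for the CTCF core (CCCTCTG; 10.3%). Over all windows these 4 motifs were in 3.91%, 3.21%, 3.24% and 9.65%. Both strands were searched, and no motif contains another.

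The following values of the time course chose the genes and are given as a description, without a test. The median log2 ratio of the 100 genes was -0.05 at 2 h, -0.29 at 4 h, -0.67 at 6 h and -0.57 at 8 h, against -0.03, -0.04, -0.17 and -0.04 for all genes with a control CPM of at least 5. At 2 h, where the rule allowed either sign, 81 of the 100 genes were below 0 (57.9% of all genes at 5 CPM or more). The values at 4 h were not part of the rule but share the control libraries with it. All 100 genes were below 0 at 4 h (56.3% of all genes at 5 CPM or more), from -0.88 (Zc4h2) to -0.00 (Chst11).

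**Figure D1:**
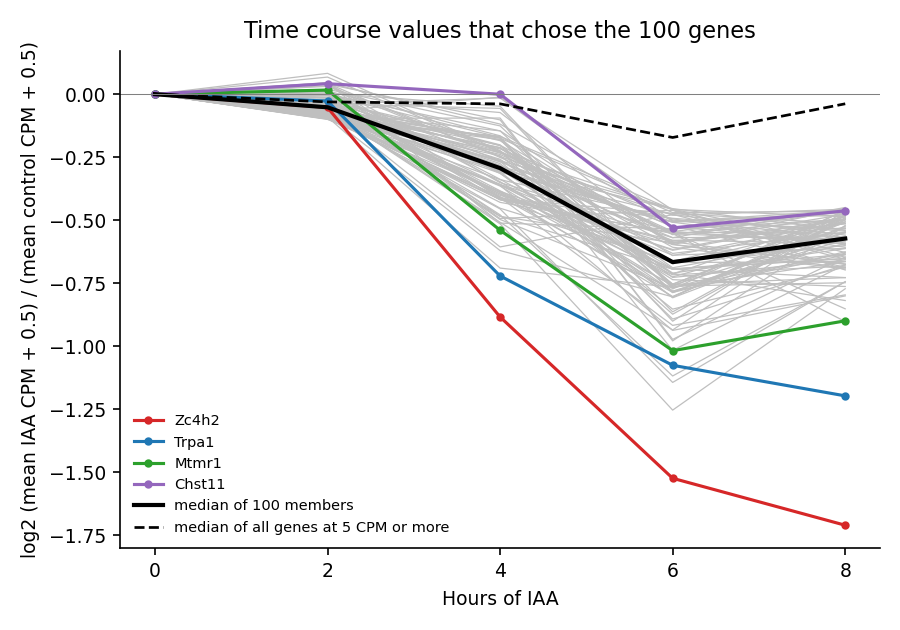
Time course values used to choose the genes: log2 ratio of mean treated to mean control CPM, 0.5 added to both (vertical axis), against hours of IAA (horizontal axis), with 1 grey line per gene and 4 named genes in colour. The median of the 100 genes (thick line) was -0.29 at 4 h and -0.67 at 6 h, while the median of all genes at 5 CPM or more (dashed line) was -0.04 and -0.17.

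The depth of the decline and its pace varied among the genes. At both late times 60 genes were under -0.5 and 2, Zc4h2 and Trpa1, were under -1. For 55 genes the log2 ratio at 4 h was already at least 0.5 times the smaller of the later declines, and 94 genes were higher at 4 h than at either later time. The lowest values at 4 h were those of Zc4h2 (-0.88), the cation channel gene Trpa1 (-0.72) and Osbpl2 (-0.69), which encodes an oxysterol-binding protein. At the other end stood Chst11 (-0.00), a chondroitin sulfotransferase gene, the desmocollin gene Dsc2 (-0.01) and Ntpcr (-0.01), a nucleoside triphosphatase gene.

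Between 6 and 8 h, 69 genes were lower at 6 h and 31 lower at 8 h by these ratios, which are scaled to total counts. All genes at 5 CPM or more were also lower at 6 h, with a median of -0.17 against -0.04 at 8 h. With TMM scaling in edgeR the order of the medians was reversed. The 100 genes then had a median log2 fold change of -0.54 at 6 h and -0.57 at 8 h. The furthest decline from 6 to 8 h was in Tspoap1 (-0.35), Iqcg (-0.30) and Galk2 (-0.24), and among the furthest returns were those of Bche (0.48) and Zbtb20 (0.46). Zbtb20 had 37 and 48 exon counts at 6 h and 39 and 110 at 8 h, so its return rested on replicate 2. The ratio at 6 h rested on a library with a low TMM factor, and 69 of the 100 genes were chosen again without it.

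The 10 genes of lowest rank were Zc4h2, Trpa1, Mtmr1 (a myotubularin-related phosphoinositide phosphatase), Rpgr (a ciliary regulator of GTPases), Cfap36 (a cilium and flagellum protein), Bche (butyrylcholinesterase), Suox (sulfite oxidase), Car13 (a carbonic anhydrase), Dusp18 (a dual-specificity phosphatase) and Ptpn6 (a tyrosine phosphatase). At the edge of the choice, Armcx1 and Cpped1 had values of -0.45 and -0.45, and the first genes outside it, Nqo2 and Pck2, also had -0.45 and -0.45 at this precision. The genes were read with fewer counts than others: their mean control CPM had a median of 13.2 (5.04 to 144) against 53.1 for those not chosen, and 40 of them were under 10 CPM against 10.1%. CPM here is a measure of the reads behind a gene and not of its level per length.

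The choice depended on single libraries. Replicate 1 alone chose 35 of the 100 genes again and replicate 2 alone 32, with 10 chosen by both. With 1 library left out, between 28 genes (without replicate 2 at 2 h) and 83 genes (without replicate 1 at 6 h) were chosen again, and without either control library 36 and 40.

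Zc4h2 (ENSMUSG00000035062.13, chrX:95639193-95658509, minus strand), which encodes a zinc finger protein tied to neural development, had the lowest time course values. Its normalised exon level was 5.77 and 5.33 CPM in the controls, 6.11 and 4.78 at 2 h, 3.23 and 2.47 at 4 h, 1.74 and 1.90 at 6 h and 1.76 and 1.03 at 8 h. The libraries at 4, 6 and 8 h were all below the controls and those at 2 h lay around them. In CGR8 cells it was 6.17 and 4.06 CPM without and 4.28 and 6.28 CPM with IAA, and these groups overlapped. In EG1 it was 5.87 and 7.39 CPM in controls and 6.37 and 7.57 after 1 h of IAA, and in LG1 5.87 and 7.91 against 5.70 and 8.07. Here replicates 1 and 2 differed more than treated and control libraries did. In wtSRCAP cells it was 3.95 and 5.40 CPM without and 1.56 and 1.76 CPM with IAA, and in cdSRCAP cells 2.41 and 3.41 CPM against 1.15 and 2.20 CPM. Both IAA libraries were below both controls in each of the transgenic lines.

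**Figure D2:**
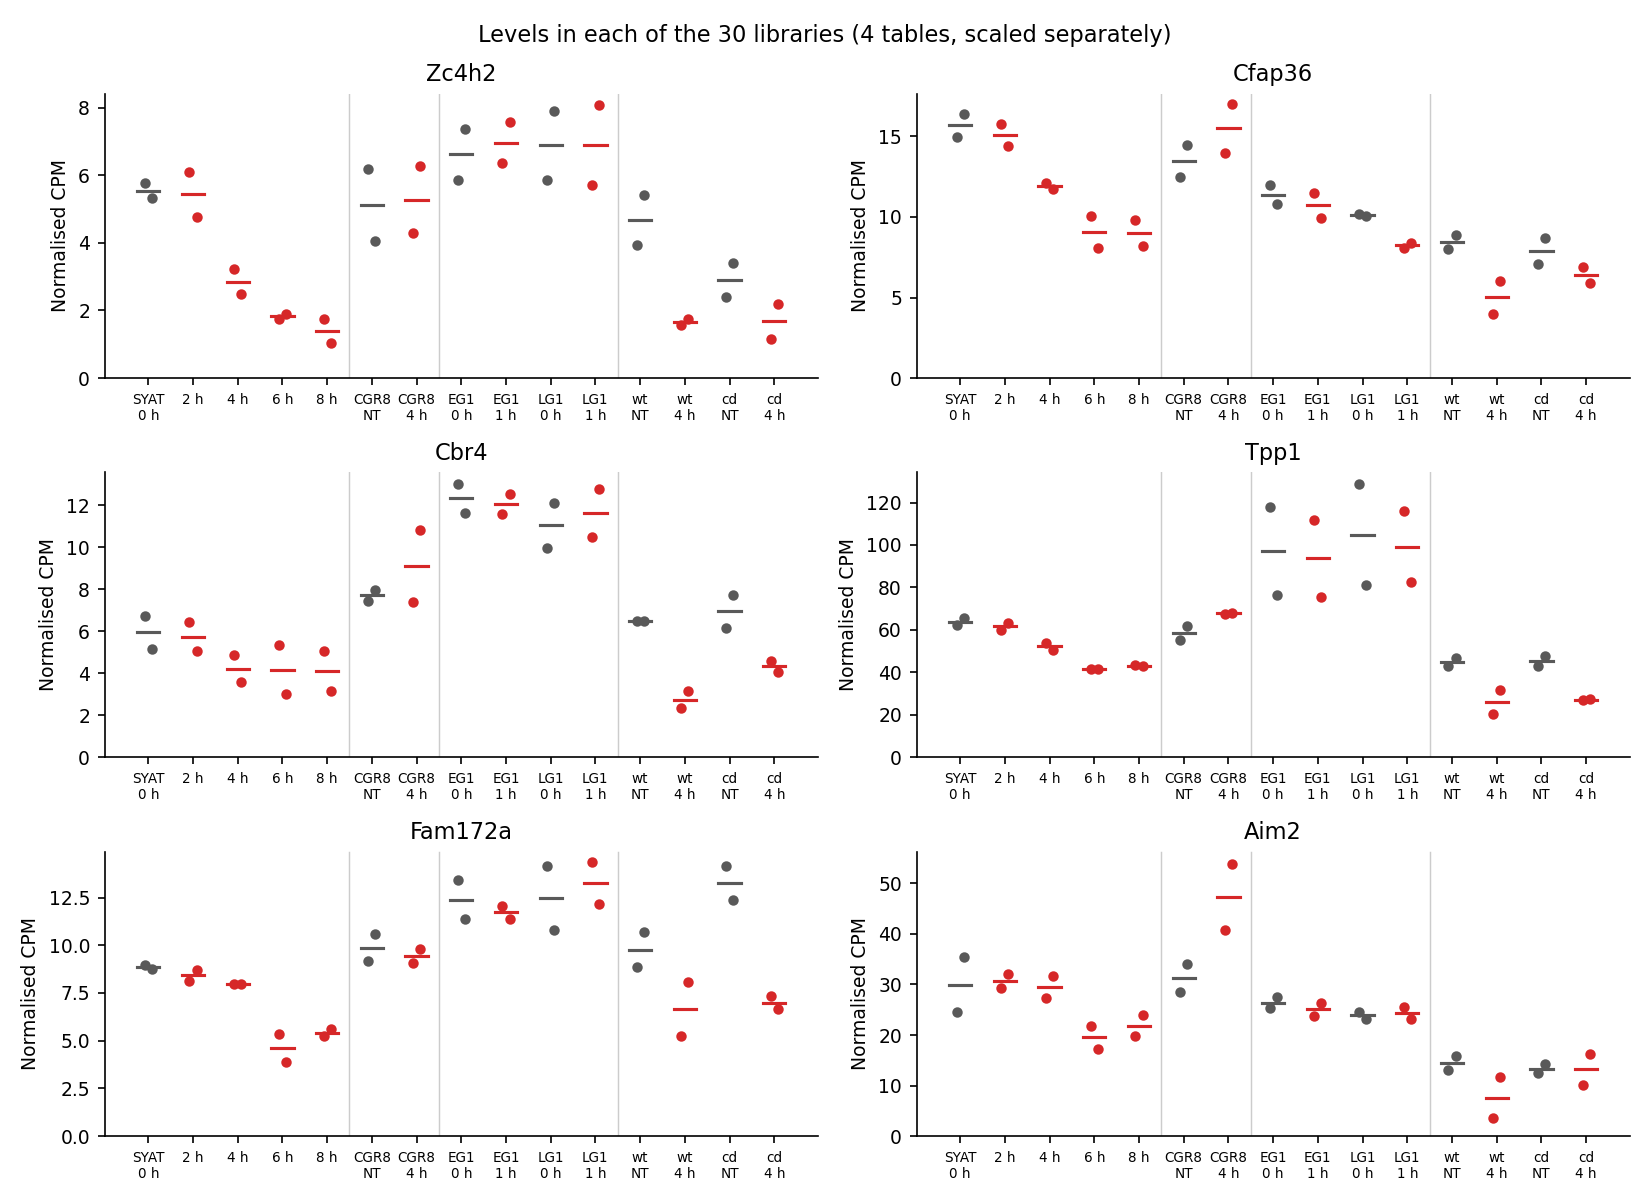
Normalised exon CPM (vertical axes, from 0) of 6 genes in each of the 30 libraries, with grey points for control, red points for IAA, and bars for the mean of 2 replicates; the 4 tables were scaled separately and are divided by vertical lines. Zc4h2 and Tpp1 were lower with IAA at 4, 6 and 8 h in SYAT cells and in both transgenic lines, and Aim2 was at 28.5 and 34.01 CPM without and 40.7 and 53.8 CPM with IAA in CGR8 cells.

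The CGR8 cells ask whether 4 h of IAA itself moves these genes where SRCAP carries no degron. They give no reading at 6 h or 8 h, the times used for the choice, and they lack OsTir1 as well as the tag. After 4 h of IAA the log2 fold changes of the 100 genes were centred on 0.05 (median; -0.02 over the eligible genes not chosen), and 46 of them were below 0, where 50.0% of all genes tested were. In edgeR, 0 of the 100 genes passed an adjusted p under 0.05 with a log2 fold change under -0.5 (0.00988% of all genes did) and 0 in the other direction (0.0%). With the replicate number as a block, 1 gene was called lower (0.889% of all genes), Dtx3, and 4 higher (1.58%), Tex15, Chm, Gm6877 and Aim2. At an unadjusted p under 0.05, 2 were lower (4.12% of all genes) and 6 higher (5.04%), and DESeq2 gave 1 and 5. Both IAA libraries lay below both controls for 24 genes (20.6%) and above them for 28 (21.6%), close to the share of all genes.

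The lower genes in CGR8 cells were Dtx3, a Deltex family gene, and Slc39a11, a zinc transporter gene. Dtx3 was at 25.5 and 25.5 CPM without and 17.9 and 16.9 CPM with IAA, a log2 fold change of -0.55 ± 0.15 (SE, n = 2 and 2, adjusted p = 0.54 in edgeR). Slc39a11 was at 21.1 and 18.9 CPM against 15.7 and 14.8 CPM, or -0.40 ± 0.16. The groups did not overlap for either gene. The higher genes were the pseudogene Gm6877 (1.31 ± 0.35), Aim2 (0.60 ± 0.18), a sensor of cytosolic DNA, Bche (0.98 ± 0.32), the Rab escort protein gene Chm (0.68 ± 0.22), the germ cell gene Tex15 (0.74 ± 0.29) and the glycosyltransferase gene Eogt (0.47 ± 0.20). Aim2, at 28.5 and 34.01 CPM without IAA, was at 40.7 and 53.8 CPM with it. In the SYAT time course its log2 ratio was -0.05 at the same 4 h. It was -0.76 at 6 h and -0.46 at 8 h, the times used for the choice.

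The genes on the X chromosome stood on the other side of 0 in CGR8 cells. Only 1 of the 11 was below 0 there, with a median of 0.18. All 365 X-linked genes at 5 CPM or more had a median of 0.10, and 35.3% of them were below 0. In wtSRCAP and in cdSRCAP cells 10 of the 11 were below 0 after IAA, with medians of -0.54 and -0.33. The X-linked genes at 5 CPM or more that could be tested had medians of -0.03 and 0.11 in these lines, with 55.8% and 33.8% below 0.

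After 1 h of IAA in sorted G1 cells the 100 genes were near their controls. Their median log2 fold change was -0.01 in EG1 and -0.02 in LG1, with 54 and 61 genes below 0 against 49.9% and 47.5% of all genes. With the thresholds used for these cells, an unadjusted p under 0.05 and a log2 fold change past 0.25, edgeR called 0 lower genes in EG1 (1.03% of all genes) and 0 in LG1 (0.733%), and 0 higher ones in either (0.19% and 0.285%). At an unadjusted p under 0.05 without the fold threshold these counts were also 0, as they were by DESeq2. Both IAA libraries lay below both controls for 5 genes in EG1 (13.4%) and 11 in LG1 (10.4%), and above them for 7 (7.98%) and 3 (7.83%).

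In EG1 the smallest p-values among lower genes belonged to Rpgr (-0.26 ± 0.17), Iqcg (-0.25 ± 0.19) and Rsrc1 (-0.16 ± 0.13), and among higher genes to the pseudogenes Gm5644 (0.46 ± 0.21) and Gm5884 (0.21 ± 0.14). In LG1 they belonged to Cfap36 (-0.30 ± 0.16), Bloc1s2-ps (-0.39 ± 0.24) and Sri (-0.21 ± 0.14), and to 4931414P19Rik (0.24 ± 0.17) and Lancl1 (0.16 ± 0.14). Cfap36 was at 10.2 and 10.1 CPM in LG1 controls and at 8.10 and 8.39 CPM after 1 h of IAA, without overlap, and in EG1 at 11.99 and 10.8 against 11.5 and 9.95 CPM, with overlap. The difference of the responses in EG1 and LG1 passed an unadjusted p under 0.05 for 0 of the 100 genes in edgeR (0.452% of all genes below 0 and 0.247% above) and in DESeq2. Its smallest p-values were those of Gm5884 (0.39 ± 0.20) and Gm5644 (0.58 ± 0.30).

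The wtSRCAP and cdSRCAP cells were not used in the choice of genes and received IAA for 4 h. In wtSRCAP cells the median log2 fold change of the 100 genes was -0.37, against 0.07 for the eligible genes not chosen and -0.02 for all genes, and 86 of the 100 were below 0, where 52.3% of all genes and 37.4% of those not chosen were. In cdSRCAP cells the median was -0.31, against 0.12 for those not chosen and 0.02 for all genes, and 85 were below 0, where 47.7% of all genes and 27.5% of those not chosen were. In bulk RNA, fewer cells expressing a gene and less RNA per cell cannot be told apart.

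Without a term for the replicate number, single genes did not pass the threshold on exon counts. In edgeR, 0 of the 100 genes were lower at an adjusted p under 0.05 and a log2 fold change under -0.5 in wtSRCAP cells (0.00523% of all genes) and 0 in cdSRCAP cells (0.0%). With the replicate number as a block the call changed, and 6 genes were lower by these thresholds in wtSRCAP cells (1.47% of all genes), Zc4h2, Osbpl2, Tpp1, Cbr4 and 4932438A13Rik among them, and 2 in cdSRCAP cells (1.28%), Ppip5k1 and Tpp1. At an unadjusted p under 0.05, 15 genes were lower in wtSRCAP cells (4.48% of all genes) and 7 in cdSRCAP cells (3.99%), with 0 higher in either (2.93% and 1.65%), and DESeq2 gave 8 and 6 lower and 0 higher. Both IAA libraries lay below both controls for 45 genes in wtSRCAP (19.5%) and 41 in cdSRCAP cells (19.0%), and above them for 2 (14.9%) and 4 (18.7%). Without the deviating replicate 1 of wtSRCAP cells with IAA, 71 genes were below 0, the median was -0.21 and 7 genes were lower at an unadjusted p under 0.05, and without replicate 2 the number of such genes was 28. Leaving out either wtSRCAP control gave 8. Without replicate 2 of the cdSRCAP controls, 65 genes were below 0 and the median was -0.10, and leaving out a cdSRCAP library gave between 3 and 6 genes in place of the 7.

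**Figure D3:**
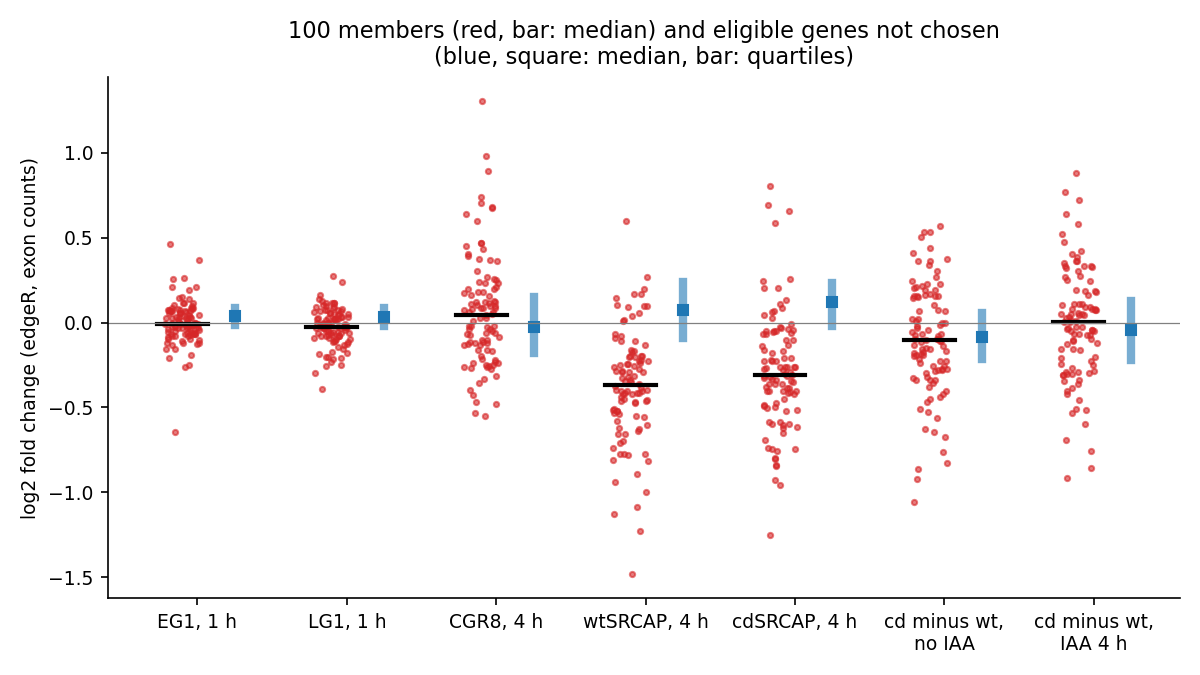
Log2 fold changes of exon counts in edgeR (vertical axis) for 7 comparisons not used to choose the genes (horizontal axis): red points are the 100 genes with a black bar at their median, and blue squares and bars are the median and quartiles of the eligible genes not chosen. The medians of the 100 genes were near 0 in EG1, LG1 and CGR8 cells and were -0.37 and -0.31 in wtSRCAP and cdSRCAP cells.

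Cbr4 and Zc4h2 were among the lower genes in wtSRCAP cells with the smallest p-values. Cbr4, a carbonyl reductase gene of mitochondrial fatty acid synthesis, was at 6.48 and 6.49 CPM without and 2.34 and 3.13 CPM with IAA, a log2 fold change of -1.23 ± 0.33 (SE, adjusted p = 0.62 in edgeR). For Cbr4, and for Zc4h2 at -1.48 ± 0.46, all IAA libraries were below all controls. In cdSRCAP cells Cbr4 was at 6.18 and 7.74 against 4.60 and 4.04 CPM, or -0.69 ± 0.32. These groups did not overlap either.

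Further genes of the 15 were 4932438A13Rik (-0.71 ± 0.23), Tpp1 (-0.78 ± 0.25), Osbpl2 (-1.0 ± 0.34), Dennd4a (-0.78 ± 0.27), Fnip1 (-0.60 ± 0.23), Trappc3 (-0.66 ± 0.26), Cpped1, Rsrc1, Dusp18, Armh4, Zbtb20 and Cfap36 (-0.74 ± 0.32). Osbpl2 was at 6.48 and 9.76 CPM without and 3.22 and 4.81 CPM with IAA. Cfap36 was at 8.03 and 8.90 CPM against 4.00 and 6.02 CPM. Neither gene had a treated library within the range of its controls. The higher genes with the smallest p-values in wtSRCAP cells were Phf2 (0.60 ± 0.44), a histone demethylase gene, and Itpripl1 (0.27 ± 0.20).

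The lower genes in cdSRCAP cells with the smallest p-values were Ppip5k1, Fam172a and Tpp1. Ppip5k1, an inositol pyrophosphate kinase gene, was at 19.96 and 20.1 CPM without and 9.83 and 10.8 CPM with IAA, a log2 fold change of -0.96 ± 0.29 (adjusted p = 0.73 in edgeR). Fam172a was at 14.2 and 12.4 CPM against 7.32 and 6.64 CPM, or -0.93 ± 0.30. In both genes the treated libraries held less than any control. In wtSRCAP cells Ppip5k1 was at 21.5 and 14.7 CPM against 15.02 and 10.48 CPM, which overlap, and Fam172a at 8.87 and 10.7 against 5.27 and 8.10 CPM, which do not. The other 4 genes of the 7 were Tbc1d22a (-0.75 ± 0.27), Fam234b (-0.76 ± 0.29), Fam184a (-1.25 ± 0.51) and Acsl6 (-0.84 ± 0.36), and the higher genes with the smallest p-values were the syndecan gene Sdc3 (0.80 ± 0.48) and Chst11 (0.66 ± 0.50). In CGR8 cells Ppip5k1 (-0.36 ± 0.19) and Fam184a (-0.43 ± 0.27) were also below both controls after IAA. Fam172a, Tbc1d22a and Acsl6 overlapped their controls there, and Fam234b and Tpp1 were above both.

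Tpp1 (ENSMUSG00000030894.5, chr7:105744811-105752235, minus strand), which encodes a lysosomal tripeptidyl peptidase, was the 1 gene lower at an unadjusted p under 0.05 in both lines (1.72% of all genes), and 21 genes were in either (6.75%). Its level was 42.7 and 46.8 CPM without and 20.2 and 31.8 CPM with IAA in wtSRCAP cells, and 43.0 and 47.7 CPM against 26.7 and 27.4 CPM in cdSRCAP cells, a log2 fold change of -0.74 ± 0.25. The SYAT time course read 62.2 and 65.4 CPM in controls, 60.03 and 63.4 at 2 h, 53.9 and 50.6 at 4 h, 41.5 and 41.6 at 6 h and 43.5 and 42.8 at 8 h. In CGR8 cells it was 55.3 and 61.8 CPM without and 67.7 and 68.0 CPM with IAA. From 4 h on, every IAA library of cells with the degron was below its controls, and in CGR8 cells both IAA libraries were above theirs, with a log2 fold change of 0.21 ± 0.14 that did not pass the test. In the sorted cells it lay between 75.6 and 129 CPM, with replicate 1 above replicate 2 in every group.

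Both IAA libraries lay below both controls in both lines for 29 of the 100 genes (9.2% of all genes, 2.29% of those not chosen). Among these were the traffic genes Trappc3, Kif16b, Dennd4a, Vps35l and Tbc1d22a, the lysosomal enzyme genes Tpp1 and Hexa, the lipid genes Mtmr1, Osbpl2 and Acadsb, and the chromatin remodeller gene Chd1l. Of the genes named, Trappc3, Kif16b, Vps35l, Hexa, Mtmr1 and Acadsb were also below both controls after IAA in CGR8 cells (20.6% of all genes were). Dennd4a, Tbc1d22a and Chd1l overlapped their controls there, and Tpp1 and Osbpl2 were above both. Hexa, the alpha subunit of beta-hexosaminidase, was at 23.3 and 23.2 CPM against 17.9 and 17.8 CPM in wtSRCAP cells and at 17.6 and 24.0 against 14.2 and 15.9 CPM in cdSRCAP cells. A log2 fold change above 0 in both lines was found for 5 genes, Arfgef3, Amt, Mboat1, 4931414P19Rik and Chst11 (33.7% of all genes). Over the 100 genes the fold changes in both lines had a Pearson r of 0.39 and a Spearman rho of 0.42, and r over the genes not chosen was also 0.39. The points of 1 line share libraries and depth, and genes are not independent replicates.

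**Figure D4:**
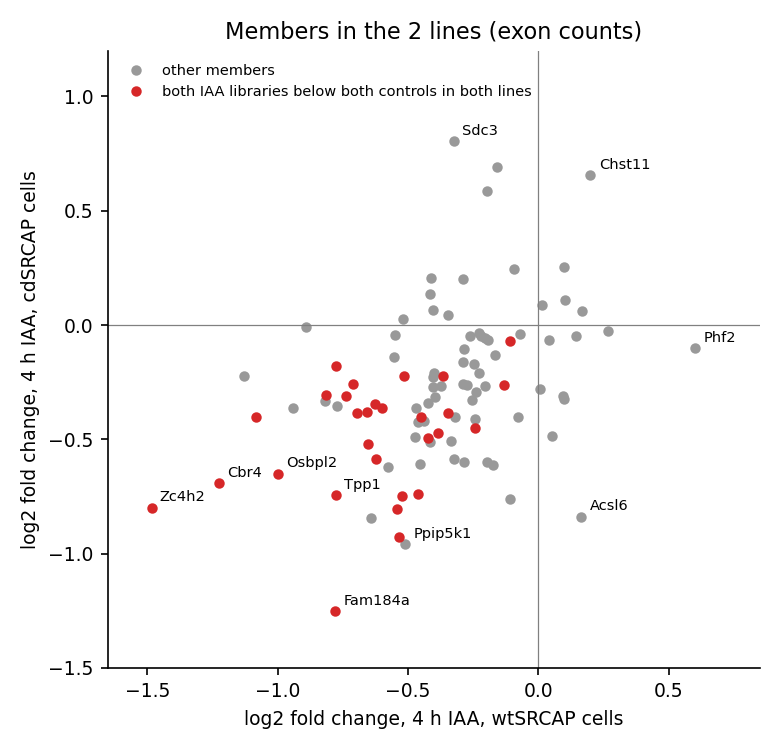
Log2 fold change of exon counts after 4 h of IAA in wtSRCAP cells (horizontal axis) and cdSRCAP cells (vertical axis) for the 100 genes; red points are the 29 genes whose IAA libraries were below both controls in both lines. Of the genes, 76 were below 0 in both lines and 5 above 0 in both.

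The transgenes give the comparison of a wild type with a catalytically dead SRCAP. The difference of the IAA responses, cdSRCAP minus wtSRCAP, had a median of 0.06 over the 100 genes and passed an unadjusted p under 0.05 for 0 of them in edgeR (0.372% of all genes below 0 and 0.413% above) and in DESeq2. The smallest p-value was that of Acsl6 (-1.0 ± 0.51), an acyl-CoA synthetase gene. Acsl6 was at 4.86 and 3.18 CPM without and 4.78 and 4.23 CPM with IAA in wtSRCAP cells, and at 4.74 and 5.85 against 3.30 and 2.65 CPM in cdSRCAP cells. With a standard error of 0.51 for Acsl6, the data do not show that the responses were alike.

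Levels were also set side by side between the lines, in comparisons that share libraries with those above and rest on 1 clone each, so that clone and transgene cannot be told apart. Without IAA the difference cdSRCAP minus wtSRCAP had a median of -0.11, and at an unadjusted p under 0.05 in edgeR 2 genes were lower (1.32% of all genes), Fam199x (-0.87 ± 0.28) and Itpripl1 (-0.57 ± 0.21), and 0 higher (2.5%). The smallest p-values among those above 0 were those of Myo6 (0.57 ± 0.33) and Osbpl2 (0.53 ± 0.33). With IAA the median was 0.00, and 3 genes were lower (2.19%), Itpripl1 (-0.86 ± 0.21), Tro (-0.53 ± 0.21) and the fatty acid elongase gene Elovl4 (-0.69 ± 0.29), and 1 higher (2.84%), Osbpl2 (0.88 ± 0.34). Itpripl1 was at 27.4 and 30.2 CPM without and 34.6 and 34.7 CPM with IAA in wtSRCAP cells, and at 19.2, 19.7, 18.7 and 19.5 CPM in the 4 cdSRCAP libraries. In either treatment it was lower in every cdSRCAP library. No adjusted p was under 0.05 for any of the 100 genes in these comparisons, by edgeR or DESeq2.

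Markers of ES cells and of other cells were read beside these results. The summed level of the 11 ES cell markers was 3227 to 3845 CPM in wtSRCAP controls and 4213 to 4409 CPM with IAA, without overlap. In cdSRCAP cells this sum was 3778 to 5049 CPM without and 4720 to 5575 CPM with IAA, with overlap. The summed level of 10 fibroblast markers was 6.80 to 7.72 CPM in wtSRCAP controls and 13.9 to 14.4 CPM in wtSRCAP cells with IAA. In cdSRCAP cells it was 8.89 to 10.3 CPM. Lum, Postn and Fap were at 0 in these groups, and 3 of the 10 markers were at 1 CPM or more in wtSRCAP cells. In the time course the fibroblast sum was 24.4 to 30.1 CPM in controls and 32.6 to 40.4 CPM at 6 h, without overlap. At 2, 4 and 8 h it overlapped the controls. The summed level of 9 markers of differentiating cells was 35.4 to 37.0 CPM in cdSRCAP controls and 48.6 to 53.5 CPM with IAA, without overlap, and in wtSRCAP cells 33.9 to 85.7 CPM without and 44.1 to 103.7 CPM with IAA, with overlap. Of these 9 markers 5 were at 1 CPM or more in cdSRCAP controls and 4 with IAA, and none was at 0 in these groups. In the time course the same sum was 54.2 to 79.2 CPM in controls and 97.5 to 103.9 CPM at 6 h, which do not overlap, and 74.3 to 108.6 CPM at 8 h, which overlaps the controls, while in CGR8 cells it was 46.5 to 49.8 CPM without and 52.8 to 54.3 CPM with IAA. The part of these marker lists in the results was not tested.

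Introns gave a measure of recent transcription that is separate from exons. In CGR8 and in wtSRCAP and cdSRCAP cells, no gene with a single exon had intron counts, while in the time course 51.9% of such genes had, so intron columns were read only in the former. Of the 100 genes, 84 had enough intron counts to be tested in the transgenic cells. Their median log2 fold change after IAA was -0.45 in wtSRCAP and -0.58 in cdSRCAP cells, against 0.09 and 0.07 for the eligible genes not chosen, and 70 and 76 of the 84 were below 0, where 48.8% and 50.2% of all genes were. In edgeR 26 were lower at an unadjusted p under 0.05 in wtSRCAP cells (6.61% of all genes) and 31 in cdSRCAP cells (7.49%), with 0 higher in either (5.76% and 3.78%). The count in both lines was 18 (3.39% of all genes and 1.07% of those not chosen). The deviating replicate 1 of wtSRCAP cells with IAA had the lowest intron total of the transgenic cells, 2006573. The intron fits were not repeated without it. In CGR8 cells the median of the 84 genes tested was 0.05, and 3 were lower (2.68%) and 1 higher (2.57%).

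Past an adjusted p of 0.05 and a log2 fold change of -0.5, 1 of the 84 genes fell in its introns in each line. Fam172a (ENSMUSG00000064138.14, chr13:77702033-78166235, plus strand), a gene of 464203 bp, fell in wtSRCAP cells, with 386 and 304 intron CPM without and 161 and 94.4 with IAA, a log2 fold change of -1.45 ± 0.24 (adjusted p = 0.049 in edgeR, 0.236% of all genes called lower). In cdSRCAP cells it was at 400 and 369 against 158 and 162 intron CPM, or -1.27 ± 0.23 (adjusted p = 0.066). In CGR8 cells it was at 97.2 and 182 intron CPM without and 166 and 160 with IAA. The treated and control libraries were apart in both transgenic lines and overlapped in CGR8 cells.

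Myo6 (ENSMUSG00000033577.18, chr9:80165031-80311729, plus strand), the gene of an actin motor of the endocytic pathway, fell in cdSRCAP cells, from 40.9 and 50.8 to 13.2 and 14.1 intron CPM, a log2 fold change of -1.74 ± 0.27 (adjusted p = 0.046 in edgeR, 0.213% of all genes called lower). In wtSRCAP cells it was at 37.3 and 28.8 intron CPM without and 18.1 and 15.3 with IAA, or -1.0 ± 0.27 (adjusted p = 0.19). Its exon log2 fold changes were -0.41 ± 0.33 and -0.24 ± 0.33 in the same cells. The intron value was the lower of the pair in both lines. In CGR8 cells the intron log2 fold change of Myo6 was -0.40 ± 0.26. Both IAA libraries were below both controls there too, as for 19.8% of the eligible genes not chosen.

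**Figure D5:**
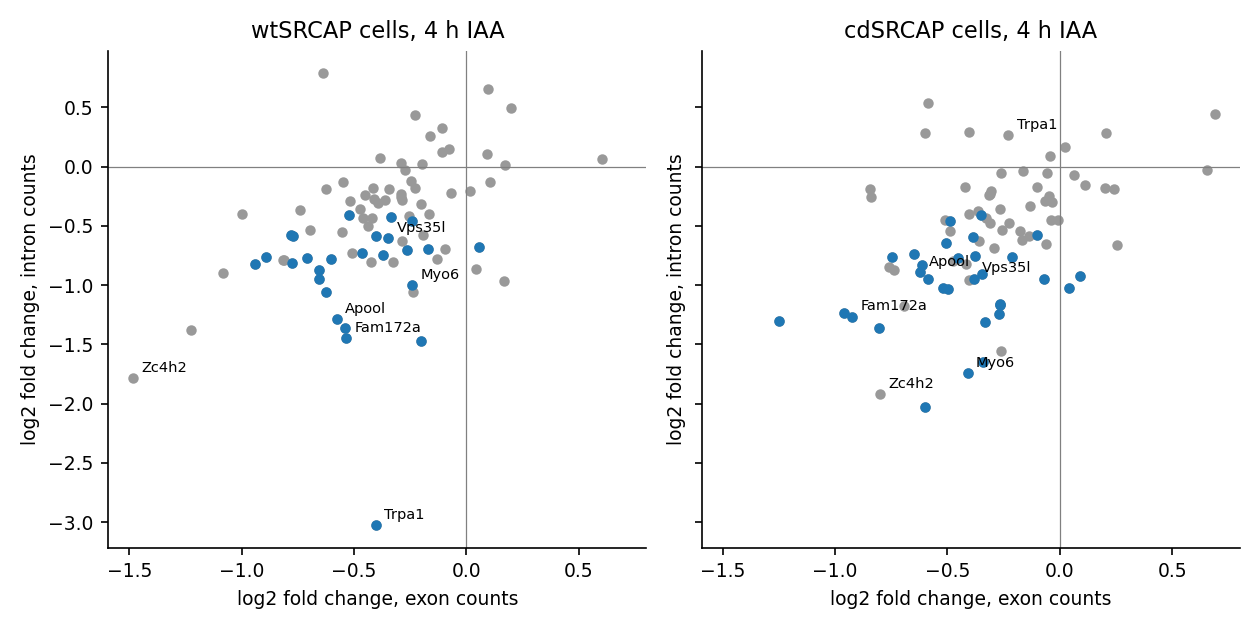
Log2 fold change after 4 h of IAA in intron counts (vertical axes) against exon counts (horizontal axes) for the 84 genes tested in both, in wtSRCAP cells (left) and cdSRCAP cells (right); blue points are genes lower in introns at an unadjusted p under 0.05 in edgeR, 26 and 31 of them. Most points lie below 0 on the vertical axes, 70 in wtSRCAP and 76 in cdSRCAP cells.

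Further genes with low intron values were the mitochondrial cristae gene Apool, Vps35l, Vps45, Rsrc1 and Fam184a. Apool was at 52.8 and 49.5 intron CPM without and 22.8 and 19.3 with IAA in wtSRCAP cells (-1.29 ± 0.24), and at 38.6 and 44.6 against 19.9 and 24.9 in cdSRCAP cells (-0.89 ± 0.23). Vps35l, a subunit of the retriever complex of endosomal recycling, was at 119 and 117 against 81.8 and 73.4 intron CPM in wtSRCAP cells (-0.61 ± 0.17) and at 127 and 125 against 73.3 and 57.9 in cdSRCAP cells (-0.94 ± 0.17). Treated and control libraries were apart in both lines for both genes. Trpa1 reached -3.03 ± 1.06 in the introns of wtSRCAP cells, with 3.09 and 7.15 against 0 and 0.954 intron CPM, and such a value at so low a level rests on few reads. In cdSRCAP cells it was at 3.07 and 4.76 against 6.86 and 2.66 intron CPM.

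Vesicle and membrane traffic was the largest named group among the 100 genes. It held the fusion regulator Vps45, the lipid transfer protein Vps13c, the tethering subunit Trappc3, the motors Myo6 and Kif16b, the Rab regulators Dennd4a and Tbc1d22a, the Rab effector Rabepk, Vps35l and Arfgef3. On exon counts after 4 h of IAA, 9 of the 10 were below 0 in each transgenic line, with medians of -0.38 and -0.38. At an unadjusted p under 0.05, 2 were lower in wtSRCAP cells (4.48% of all genes) and 1 in cdSRCAP cells (3.99%). In introns these counts were 7 and 6 (6.61% and 7.49% of all genes). On exon counts of CGR8 cells 7 of the 10 were below 0, with a median of -0.13. At such a p 0 were lower (4.12% of all genes). In CGR8 introns Vps45 alone among the 10 was lower at such a p (-0.67 ± 0.24, 2.68% of all genes). Trappc3 was at 16.8 and 17.3 CPM without and 10.6 and 10.99 CPM with IAA in wtSRCAP cells and at 12.6 and 17.4 against 10.9 and 12.2 CPM in cdSRCAP cells. Over the whole list of 393 traffic genes, 37 were lower and 7 higher at an unadjusted p under 0.05 in wtSRCAP cells and 34 and 2 in cdSRCAP cells, where 5.13% and 5.06% of all genes at 5 CPM or more were lower.

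Of the 9 lipid and peroxisome genes, which include Fig4 and Inpp5b (phosphoinositide phosphatases), Acadsb (an acyl-CoA dehydrogenase), Ech1 (a peroxisomal enzyme) and Mboat1 (an acyltransferase) beside Mtmr1, Osbpl2, Acsl6 and Elovl4, 5 were below 0 in wtSRCAP and 8 in cdSRCAP cells, with medians of -0.26 and -0.31. Mtmr1 was at 6.28 and 5.18 CPM without and 3.41 and 4.38 CPM with IAA in wtSRCAP cells and at 7.53 and 5.58 against 2.46 and 4.98 CPM in cdSRCAP cells. The whole list of 189 genes held, at an unadjusted p under 0.05, 15 lower and 8 higher genes in wtSRCAP and 19 and 5 in cdSRCAP cells, where 5.13% and 5.06% of all genes at 5 CPM or more were lower and 3.56% and 1.92% higher. The cilium and centrosome list of 176 genes, most of whose large families the rule sets aside, held 32 lower genes in wtSRCAP and 35 in cdSRCAP cells and 0 higher genes in either at the same p, against the same shares of all genes. Its members among the 100, Rpgr and Cfap36, were both below 0 in both lines, and Rpgr was at 8.03 and 8.36 CPM against 2.34 and 6.69 CPM in wtSRCAP cells and at 6.18 and 9.02 against 5.07 and 7.04 CPM, which overlap, in cdSRCAP cells.

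Some genes were too low to be read in single libraries. Pcdh18, Gm5644 and Gm6877 had under 10 exon counts in at least 1 library of wtSRCAP and cdSRCAP cells, with lowest counts of 4, 6 and 5. The other 97 genes had at least 10 exon counts in each library there.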

How the data were processed

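Nuclear RNA-seq counts of 30 libraries in 15 conditions, 2 replicates each, were used, from 4 tables, and groups were taken from the sample labels. The study describes its RNA-seq replicates as biological duplicates and its replicates as cultured and treated independently. Nothing in the labels ties them to separate clones. The p-values therefore measure the spread between these samples and not between clones, and part of that spread may be technical. Alignment by the authors was with STAR on mm10, and featureCounts gave counts over exons and over introns of GENCODE vM25 (SAMtools 1.10, Picard and DESeq2 are also named in the submitters' processing notes). The deposited values are whole-number counts per gene, without normalization. The authors also deposited tables of their own comparisons, with normalised intron values, log2 fold changes and p-values from DESeq2, which were not used here. In the time course and in EG1 the intron columns hold counts of mitochondrial or single-exon genes and were not read as introns in the report, only tried as an alternative count.

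Identifiers were matched to GENCODE vM21 (GRCm38), 55141 of 55401 with or without their version. Every table was modelled with all its libraries in edgeR 4.0.16 (R 4.3.3, limma 3.58.1) with glmQLFit and glmQLFTest on TMM-scaled counts, after filterByExpr by condition (minimum count 10, minimum total 15), with Benjamini-Hochberg adjustment over all genes. Normalised CPM uses the TMM-scaled library sizes within a table. Calls needed an adjusted p under 0.05 and an absolute log2 fold change over 0.5, or in sorted cells an unadjusted p under 0.05 and 0.25. Differences of responses were tested as interactions. Alternatives were DESeq2 1.42.0 (shrinkage of type normal), RLE scaling, no filter, only the groups compared, a replicate block, intron counts and each library left out in turn. The fits were tested on simulated data. Tables were made with python 3.11.15 and pandas 2.3.3.

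The 100 genes, the gene lists and the tests were chosen with earlier results of these data known. Named are the 10 genes of lowest rank, those on either side of the cutoff, the genes with the smallest p in each comparison (3 lower, 2 higher) and each interaction (2), the 3 of lowest rank in each list, the extremes of the 4 h value, of the difference of 8 h and 6 h and of gene length, single-exon genes, genes under 10 counts, and Srcap. Other genes named among a count or a group, and the promoters shown, were chosen after their values were seen. A gene that the rule would name is not reported here.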

Additional observations from a re-analysis of the deposited data

How the results depend on the processing

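The counts of genes below 0 after IAA in CGR8, wtSRCAP and cdSRCAP cells stayed within 1.5 times their value under each alternative run, 10 in CGR8 cells and 11 in each transgenic line (with 1 library left out, 42 to 48 in CGR8, 71 to 89 in wtSRCAP and 65 to 86 in cdSRCAP cells). The labels do not say that a replicate number marks a shared day or batch. The deviations of same-numbered libraries had correlations from -0.01 to 0.75 in the time course, 0.35 in CGR8, 0.75 to 0.87 in sorted and 0.61 to 0.71 in wtSRCAP and cdSRCAP cells. With the replicate number as a block, the called lower genes went from 0 to 1 in CGR8 cells, 1 in EG1, 3 in LG1, 6 in wtSRCAP and 2 in cdSRCAP cells, to 1 for cdSRCAP against wtSRCAP with IAA and to 1 for EG1 against LG1 responses, and those at an unadjusted p under 0.05 to 32 in wtSRCAP and 23 in cdSRCAP cells. At that p the block also gave 4 lower and 14 higher genes in CGR8 cells (2 and 6 without it), 1 and 5 in EG1 and 5 and 0 in LG1 (0 without it), 10 and 2 for cdSRCAP against wtSRCAP controls (2 and 0 without it), 4 and 5 with IAA (3 and 1 without it), and 1 and 2 for the difference of the cdSRCAP and wtSRCAP responses (0 without it). Without the filter on low counts 1 gene was called in EG1. In EG1 and the time course the intron columns also count single-exon genes, so their values are no measure of introns alone. Such genes had intron counts for 45.5% over all sorted cells and 51.9% in the time course. The LG1 intron columns held 0% mitochondrial counts and 0 counts of the single-exon genes Gm5884, Gm5644 and Gm6877. Intron counts gave 1 in EG1, 4 in LG1, 1 in wtSRCAP and 1 in cdSRCAP cells, and 26 and 31 at an unadjusted p in the last pair. Intron counts with the replicate block, chosen after seeing the data, gave 6 in EG1, 7 in LG1, 6 in wtSRCAP and 13 in cdSRCAP cells, and 29 and 39 at an unadjusted p. At an unadjusted p under 0.05, DESeq2 gave 8 in wtSRCAP cells, and a fit of only the groups compared gave 5 in wtSRCAP and 13 in cdSRCAP cells. With 1 library left out these counts ran from 7 to 28 in wtSRCAP and 3 to 6 in cdSRCAP cells, and LG1 calls from 0 to 1 (without control replicate 1). The choice of the 100 genes was repeated for 28 to 83 genes with 1 library left out, 35 by replicate 1 and 32 by replicate 2 alone, 27 by intron counts, and 60 and 60 with a control CPM of at least 10 or 2. The cause of these changes was not tested. With 2 libraries a group and a median control CPM of 13.2, single genes were read with wide errors.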
